A study of Mus musculus with 2 samples.

Results

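Oxidative phosphorylation is carried out by 5 protein complexes of the inner mitochondrial membrane. Complexes I and II (NADH and succinate dehydrogenase), III (cytochrome bc1) and IV (cytochrome c oxidase) form the respiratory chain, and complex V is the ATP synthase. Most subunits are encoded in the nucleus and imported, a small set is encoded in mitochondrial DNA, and complex II alone has only nuclear subunits. Mature neutrophils are known to rely mostly on glycolysis, while osteoclasts, the bone-resorbing cells, are rich in mitochondria. The genes described here were those whose symbol began with Nduf (families a, b, c, s and v), Uqcr, Atp5 or Cox4 to Cox8 followed by a, b or c, or was Sdha, Sdhb, Sdhc or Sdhd, with at least 20 UMIs (unique molecular identifiers, each 1 captured transcript) over both count matrices. Of 32285 genes in the matrices, 83 symbols matched and 80 met the minimum, against 20810 genes that met it in the whole series. The 80 genes comprised 38 of complex I, 4 of complex II, 8 of complex III, 13 of complex IV and 17 of complex V, on 19 chromosomes. The least counted of the 80 genes, Cox7a1, had 1664 UMIs, and the 3 genes left out were Cox7b2 with 17 UMIs, Cox8b with 14 and Cox8c with 1. The symbol rule sorts Ndufa4 with complex I, although its protein is known as a subunit of complex IV, and it passes over the complex IV subunit genes Cox4i1 and Cox4i2, the complex III gene Cyc1 and the complex I gene Ndufab1. Ndufb1-ps is annotated as a long noncoding RNA with a bidirectional promoter in GENCODE vM21, and the other 79 genes as protein coding.

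The cells came from calvarial bone around a defect in C57BL/6 mice, dissociated by collagenase 7 days after injury from a piece with an edge of about 3 mm. The first library held cells of mice that received gambogic amide (GA), a small molecule agonist of the nerve growth factor receptor TrkA, at 1.2 mg/kg in 10% DMSO, and the control library cells of mice that received 10% DMSO alone. The dose is that of the sample labels, and the study's methods state a different, higher one. Injections of 100 µL were intraperitoneal, began 24 h before injury and were given daily for 1 week. Each library pooled several mice, so neither condition had a replicate, no test between conditions was possible, and every interval given is a 95% interval that covers counting error only.

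After filtering, 8380 cells with a median of 10968.5 UMIs were kept from the GA library and 7553 cells with a median of 16299 UMIs from the control library. The libraries shared 18 kept barcodes. Cells were clustered without the subunit genes, the mitochondrial genes or the pathway lists used here, apart from the cell division list. Genes of that list could enter the clustering, and Mki67 was among the markers that named dividing stages. Clusters were named from marker genes. The markers gave no class name to 221 GA and 163 control cells. Neutrophil stages were named in a further clustering of cells whose best match was neutrophil or haematopoietic progenitor. That clustering took in 227 cells without a class name, from a cluster with platelet genes such as Ppbp among its top genes. Early progenitor-like cells, 154 in number, can therefore be cells without a class name, possibly most of them. Their top genes included Dntt and Flt3. A stage cluster of 74 cells with platelet genes among its top genes got no stage name. Levels are CPM, the UMIs of a gene per 1000000 UMIs of a group of cells. They are not divided by gene length, since UMIs were counted near transcript ends, and they give a gene's part of the group's RNA, so less RNA of one kind and more of the rest cannot be told apart.

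Over all kept cells, the 80 genes held 16414 CPM in the GA library and 15817 CPM in the control library. The classes spanned a wide range in both libraries (plot of the summed level by class). The order given here is that of the osteoclast-like class and the 11 classes with at least 50 cells in each library. Osteoclast-like cells stood highest, with 41608 CPM (interval 41270 to 41948, 30 cells) in the GA library and 44259 CPM (44020 to 44499, 62 cells) in the control library. Haematopoietic progenitor-like cells followed with 30695 and 26093 CPM, then erythroid-like cells with 24597 and 24502 CPM and B-like cells with 22391 and 21962 CPM. Of the markers of this progenitor class, Cd34 (39.9 and 25.6 against 141 and 141 CPM) and Sox4 were lower in it than in the rest. Its other markers were higher, with Elane at 6173 and 8894 CPM. Early progenitor-like cells, named in a separate clustering by stage, stood at 21913 and 20606 CPM. The B-like class came from a cluster with Igll1 and Vpreb1 among its top genes and one with Rag1. Mki67 stood at 607 and 662 CPM in it, and its part in the level was not tested. A cluster of 157 cells with Ighd and Fcer2a among its top genes got no class name and is not in the B-like class. Neutrophil-like cells stood lowest in both libraries, with 8516 CPM (8488 to 8544, 4404 cells) and 8531 CPM (8485 to 8577, 2077 cells), below osteoblast-like cells with 12591 and 12108 CPM and mesenchymal-like cells with 14768 and 15157 CPM. Single cells gave a like contrast. The median osteoclast-like cell gave 4.06% of its UMIs to the 80 genes in the GA library and 4.56% in the control library, the median neutrophil-like cell 0.614% and 0.639%. The erythroid-like class was uneven, since its median cell gave 0.528% and 0.547% while 10% of its cells lay above 2.90% and 2.98%. Pericyte or smooth muscle-like cells also spread widely, with 10% of them below 0.198% in GA and 0.173% in control, and their depth was low, with medians of 3321 and 2375 UMIs.

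**Figure D1:**
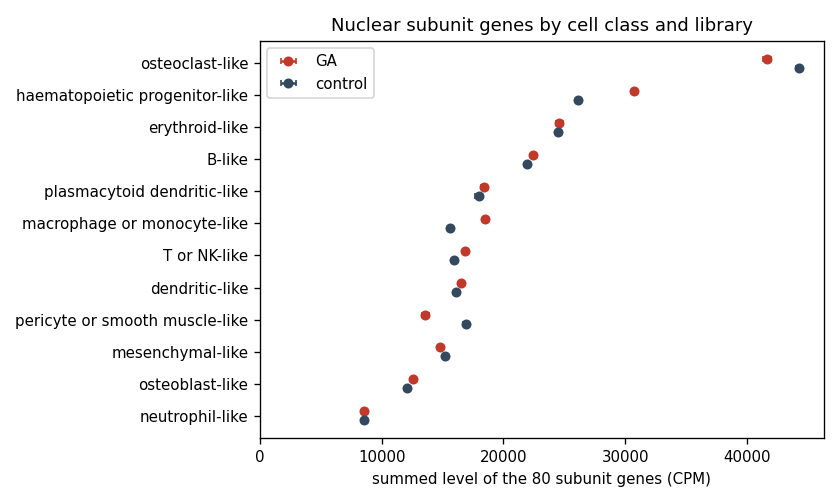
Summed level of the 80 nuclear subunit genes in CPM (x axis) for the 11 cell classes with at least 50 cells in each library and for osteoclast-like cells (y axis), GA in red and control in dark blue, with 95% Poisson intervals mostly narrower than the points. Osteoclast-like cells sit at 41608 and 44259 CPM and neutrophil-like cells at 8516 and 8531 CPM.

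Single genes differed in how far they followed this pattern. Over the 11 classes with at least 50 cells in each library, 76 of the 80 genes had at least 20 UMIs everywhere. Atp5g1, which encodes one of the c subunits that form the rotor ring of ATP synthase, varied most, with a standard deviation of 1.07 log2 units. Its level was 790 CPM in haematopoietic progenitor-like cells of the GA library and 544 CPM in those of the control library, against 38.4 and 40.4 CPM in neutrophil-like cells. Ndufa12 and Ndufs3, both of complex I, came next with standard deviations of 0.87 and 0.86. Ndufa3, Ndufa13 and Atp5l varied least, with 0.23, 0.24 and 0.34. Ndufa3 ranged only from 263 and 246 CPM in haematopoietic progenitor-like cells to 141 and 130 CPM in osteoblast-like cells.

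The promoters of these genes were read from RefSeq windows of 300 bases on GRCm38.p6, from 250 bases before to 50 after the start, which were matched for 65 of the 80 genes. They are shown for Atp5g1 and Ndufa3, whose levels varied most and least, for Atp5g2, a second c subunit gene, and for Cox6a1, the common isoform of a pair described below. Capitals mark matches, on either strand, to the palindromic NRF1 motif, whose 10 letters are the only capitals in the Atp5g2 line, and to CCGGAAG (GABPA), motifs of factors known to act at genes of the respiratory chain. The window of Atp5g1 is chr11:96075582-96075881 (minus strand), that of Ndufa3 chr7:3617123-3617422 (plus strand), that of Atp5g2 chr15:102670998-102671297 (minus strand) and that of Cox6a1 chr5:115348909-115349208 (minus strand).
Atp5g1: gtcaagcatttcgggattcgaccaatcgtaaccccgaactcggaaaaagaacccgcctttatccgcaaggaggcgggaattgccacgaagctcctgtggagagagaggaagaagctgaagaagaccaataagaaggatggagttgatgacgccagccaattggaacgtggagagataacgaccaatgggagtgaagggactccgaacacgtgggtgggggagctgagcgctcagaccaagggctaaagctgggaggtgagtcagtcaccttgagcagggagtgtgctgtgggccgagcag
Ndufa3: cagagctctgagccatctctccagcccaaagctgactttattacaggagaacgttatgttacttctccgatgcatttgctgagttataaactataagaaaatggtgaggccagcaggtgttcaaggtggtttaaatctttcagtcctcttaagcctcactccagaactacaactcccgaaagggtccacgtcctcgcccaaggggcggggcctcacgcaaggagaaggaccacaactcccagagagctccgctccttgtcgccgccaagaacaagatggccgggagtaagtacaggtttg
Atp5g2: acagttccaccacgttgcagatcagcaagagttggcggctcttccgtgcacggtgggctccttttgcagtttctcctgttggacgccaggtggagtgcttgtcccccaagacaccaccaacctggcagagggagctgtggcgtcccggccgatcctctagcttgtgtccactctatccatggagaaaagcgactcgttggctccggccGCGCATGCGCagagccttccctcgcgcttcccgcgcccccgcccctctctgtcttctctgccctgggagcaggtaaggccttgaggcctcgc
Cox6a1: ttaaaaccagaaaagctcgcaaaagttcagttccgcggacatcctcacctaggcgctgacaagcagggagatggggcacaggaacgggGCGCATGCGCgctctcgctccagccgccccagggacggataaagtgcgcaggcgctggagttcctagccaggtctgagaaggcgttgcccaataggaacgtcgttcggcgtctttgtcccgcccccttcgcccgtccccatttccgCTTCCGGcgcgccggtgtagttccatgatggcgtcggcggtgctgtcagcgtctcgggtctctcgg
Neither motif, nor AAGATGGCG (YY1) or AAGGTCA (ESRRA), matched in the windows of Atp5g1 and Ndufa3. In Atp5g2 the NRF1 match began at base 209 of the window, and in Cox6a1 it began at base 89 with a GABPA match at base 235. Of the 65 matched genes, 5 (7.69%) held the NRF1 motif, 17 (26.2%) the GABPA motif, 7 (10.8%) the YY1 motif and 8 (12.3%) the ESRRA motif. Among all 27025 gene symbols with windows of that length, counted here or not, the shares were 1.07%, 9.93%, 1.64% and 5.38%. A gene with several windows held a motif if any of them matched. The windows of the 65 genes had a median GC content of 57.3%, against 52.7% over all, and its part in these shares was not tested. A match is a stretch of letters and was not tested as a binding site.

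Over the neutrophil stages, from early progenitor-like to mature cells, the level differed widely (plot of each complex by stage). The summed level of the 80 genes was 21913 and 20606 CPM in early progenitor-like cells of the GA and control libraries, and 29507 (29383 to 29632, 166 cells) and 25168 CPM (24980 to 25357, 85 cells) in promyelocyte-stage cells, which make the granule proteins Elane and Mpo. It was 14147 and 13080 CPM in dividing neutrophil precursors, 8082 and 7913 CPM in non-dividing immature cells, and 5392 (5355 to 5430, 2574 cells) and 5913 CPM (5849 to 5977, 1279 cells) in mature cells. The order of the stages from the promyelocyte stage onward was the same in both libraries.

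**Figure D2:**
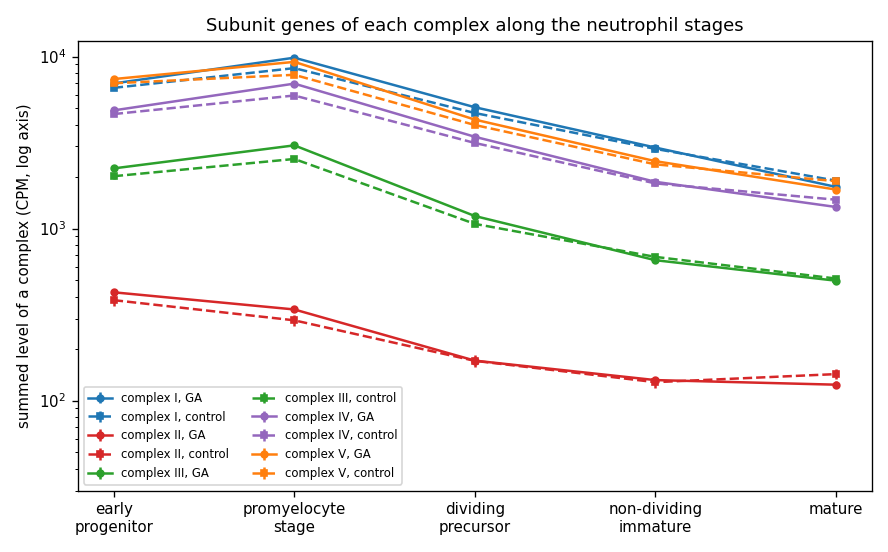
Summed level of the subunit genes of each complex (y axis, CPM, log scale) over 5 neutrophil stages (x axis), with solid lines for GA, dashed lines for control and 95% Poisson intervals. Complexes I, III, IV and V are highest at the promyelocyte stage and lower at each later one, and complex II is already lower there than in early progenitor-like cells.

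Gene by gene, 29 of 78 genes lay more than 0.5 log2 units higher at the promyelocyte stage than in early progenitor-like cells of the GA library and 17 of 78 in the control library, where 12.4% and 13% of all genes with at least 20 UMIs did. From there to dividing precursors 68 of 78 and 68 of 77 genes lay more than 0.5 lower, against 45.4% and 42.5% of all genes. From dividing to non-dividing immature cells 64 of 78 and 58 of 77 did, against 40.7% and 37.6%. From non-dividing immature to mature cells 54 of 77 and 46 of 77 did, against 29.1% and 27.3%. Between the ends, promyelocyte-stage and mature cells, all 77 genes with at least 20 UMIs lay more than 0.5 lower in mature cells in each library, against 52.5% of all genes in the GA library and 49.1% in the control library. The 3 genes under that count in both libraries were Cox6a2, Cox7a1 and Ndufa4l2. The median log2 ratio of the 77 genes was -2.72 in the GA library and -2.30 in the control library, where the medians over all genes were -0.69 and -0.44. Cells of the 2 stages also differed in depth, with medians of 43591 and 31859 UMIs at the promyelocyte stage and 5519 and 4067 UMIs in mature cells. With each cell thinned to 2000 UMIs the median log2 ratio was -2.64 in GA and -2.29 in control. Random thinning gives cells equal weight and leaves the expected shares within a cell unchanged, so it cannot tell the part of depth. The cell division gene Mki67 stood at 152 and 162 CPM at the promyelocyte stage against 3.29 and 4.86 CPM in mature cells, and its part in the ratios was not tested.

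Succinate dehydrogenase, which is complex II and also a step of the tricarboxylic acid cycle, differed least between these stages as a complex. Its 4 genes had a median log2 ratio of -1.41 in the GA library and -1.05 in the control library, whereas the medians of complexes I, III, IV and V were -3.03, -3.03, -2.69 and -2.71 in GA and -2.57, -2.57, -2.19 and -2.28 in control. Sdha, the flavoprotein subunit, stood at 87.6 and 69.8 CPM at the promyelocyte stage and at 40.2 and 43.8 CPM in mature cells, a log2 ratio of -1.12 (-1.29 to -0.96) in GA and -0.67 (-0.95 to -0.39) in control. Sdhd, a membrane anchor, went from 126 and 114 CPM to 43.4 and 53.7 CPM. Between non-dividing immature and mature cells it was higher in mature cells, by a log2 ratio of 0.18 (0.02 to 0.33) in GA and 0.61 (0.35 to 0.88) in control. Sdhc, the other anchor, was the exception within the complex, at 44.2 and 38.2 CPM against 6.92 and 9.91 CPM, a log2 ratio of -2.68 (-3.01 to -2.35) and -1.95 (-2.45 to -1.46).

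Within the larger complexes the ratios were uneven (plot of the ratios by complex). Ndufa5 of complex I went from 209 and 182 CPM at the promyelocyte stage to 2.22 and 3.78 CPM in mature cells, with 33 and 21 UMIs behind the lower values, a log2 ratio of -6.56 (-7.10 to -6.06) in GA and -5.59 (-6.29 to -4.96) in control. Atp5g1 went from 756 and 547 CPM to 10.2 and 12.4 CPM, a log2 ratio of -6.21 (-6.45 to -5.98) and -5.46 (-5.83 to -5.11). Ndufc2 of complex I went from 288 and 222 CPM to 6.45 and 5.95 CPM. At the other end, Atp5l, a membrane subunit of ATP synthase, stood at 688 and 587 CPM and then at 342 and 374 CPM, a log2 ratio of -1.01 (-1.06 to -0.95) and -0.65 (-0.74 to -0.55). Ndufa3 went from 280 and 249 CPM to 143 and 159 CPM, and Cox7a2l, sorted with complex IV by the symbol rule, from 165 and 167 CPM to 84.7 and 92.1 CPM. Complexes I and V each held genes from both ends of this range.

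**Figure D3:**
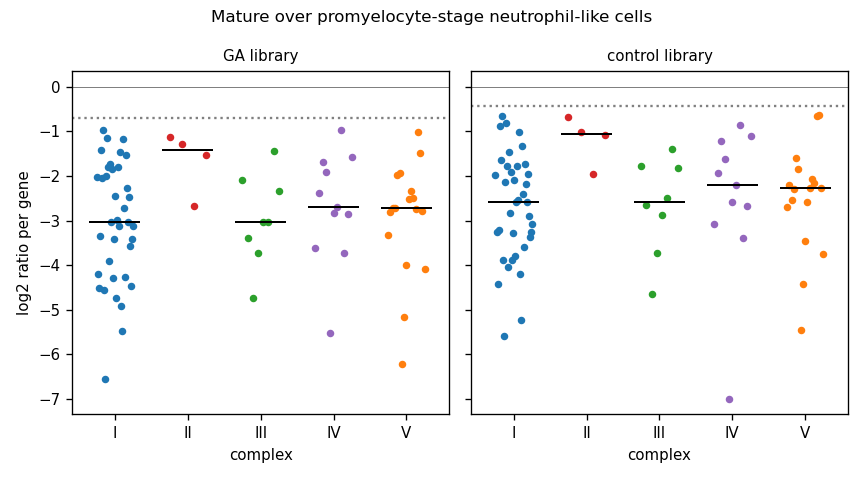
Log2 ratio of each subunit gene (y axis) in mature over promyelocyte-stage neutrophil-like cells by complex (x axis), GA library on the left and control on the right, with a black bar at the median of a complex and a dotted line at the median over all genes. The 4 genes of complex II have medians of -1.41 and -1.05, above those of the other complexes, and single genes reach -6.56 in GA.

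The 3 genes of the c subunit, Atp5g1, Atp5g2 and Atp5g3, encode the same mature protein and differ in their import sequences. At the promyelocyte stage Atp5g1 held 44.1% of their UMIs in the GA library and 42.1% in the control library. In dividing precursors it held 23.1% and 23.0%, and Atp5g2 held 50.8% and 50.9%. In mature cells Atp5g3 held 41.1% and 36.4%, against 18.2% and 17.7% at the promyelocyte stage. Erythroid-like cells were the class with the largest part from Atp5g1, 47.4% and 47.0%.

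The lists of related genes were read beside the subunits over the same stages. All 13 subunit genes of mitochondrial DNA lay lower in mature than in promyelocyte-stage cells, with a median log2 ratio of -3.69 in GA and -3.38 in control. Their UMIs per UMI of the 80 nuclear genes went from 1.10 and 1.41 at the promyelocyte stage to 0.621 and 0.556 in mature cells. mt-Co1, of complex IV, went from 5430 and 5788 CPM to 1168 and 856 CPM, and mt-Nd1, of complex I, from 1816 and 1722 CPM to 58.9 and 98.2 CPM. Mitochondrial ribosomal proteins had medians of -4.11 and -3.56, cytosolic ribosomal proteins -4.19 and -3.74, mitochondrial carriers and import -3.65 and -2.93, assembly factors -3.05 and -2.78, and tricarboxylic acid cycle enzymes -2.42 and -2.16. Genes of glycolysis and the hypoxia response had medians of -0.77 and -0.71, beside -0.69 and -0.44 over all genes. The summed level of that list went from 7179 and 5810 CPM at the promyelocyte stage to 4876 and 4135 CPM in mature cells. Slc16a3, the lactate exporter, went against the median of this list. It stood at 37.1 and 32.0 CPM at the promyelocyte stage and 1345 and 1231 CPM in mature cells. The gene of lowest ratio in the list is not given here. Among factors that act on mitochondrial genes, Tfam, the packaging factor of mitochondrial DNA, went from 33.2 and 22.4 CPM to 0.605 and 1.26 CPM, with 9 and 7 UMIs behind the latter. Myc went from 29.4 and 30.1 CPM to 1.21 and 1.08 CPM. Nrf1 went the other way, from 42.0 and 40.8 CPM to 78.9 and 82.2 CPM, as did Esrra, from 10.1 and 8.45 CPM to 25.6 and 24.0 CPM. Gabpa stood at 23.4 and 17.6 CPM and then at 11.8 and 12.3 CPM, and Yy1 at 104 and 113 CPM and then at 79.8 and 102 CPM. Ppargc1a had at most 4 UMIs in any of the 5 stages.

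Osteoclast-like cells showed the opposite contrast with the lineage they arise from (plot of levels in both classes). Against macrophage- or monocyte-like cells of their own library, 75 of the 80 genes lay more than 0.5 log2 units higher in the GA library, where 24.6% of all genes did, and 77 in the control library, where 27.3% did. The median log2 ratio was 1.17 in GA and 1.54 in control, against -0.19 and -0.09 over all genes. Complexes II and III stood highest, with medians of 1.61 and 1.45 in GA and 1.83 and 1.94 in control. Uqcr10, a small subunit of complex III, stood at 1008 CPM (956 to 1062) and 1083 CPM (1046 to 1121) against 228 and 203 CPM, a log2 ratio of 2.15 (2.06 to 2.23) and 2.41 (2.35 to 2.47). Sdhb, the iron-sulfur subunit of complex II, stood at 361 and 341 CPM in osteoclast-like cells, a log2 ratio of 1.69 (1.55 to 1.82) and 1.92 (1.82 to 2.02). Ndufa4 stood at 1037 and 1103 CPM against 364 and 239 CPM. The smallest differences among well counted genes were those of Ndufb1-ps in the GA library, 649 against 525 CPM, and of Ndufv3 in the control library, 172 against 121 CPM. The genes that lay lower were Cox6a2, Cox6b2 and Ndufa4l2, each with at most 8 UMIs in osteoclast-like cells of either library. The class rested on 30 and 62 cells with median depths of 43797.5 and 45370.5 UMIs, and the marker genes Ctsk and Acp5 stood at 8518 and 6115 CPM in it in the GA library. When each cell was named by its highest marker score in place of its cluster, the median log2 ratio was 0.59 in GA and 0.92 in control.

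**Figure D4:**
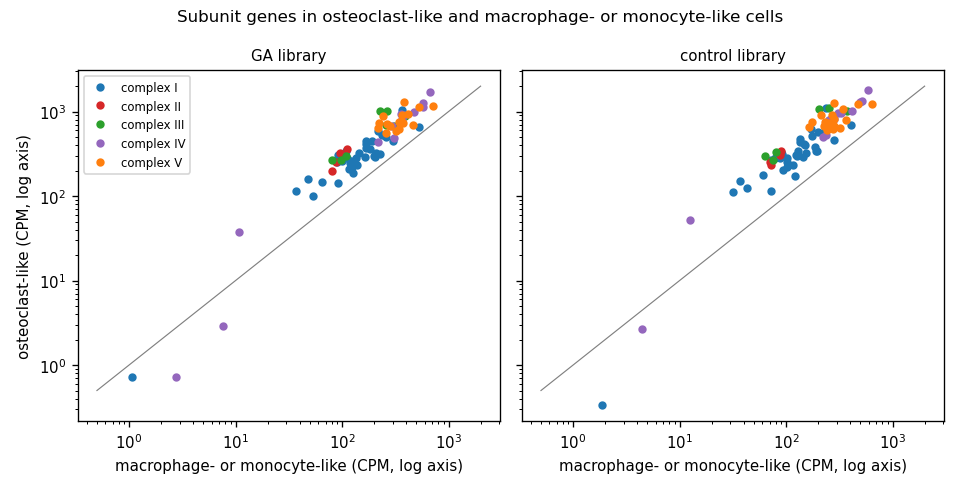
Level of each subunit gene in osteoclast-like cells (y axis) against macrophage- or monocyte-like cells (x axis), both in CPM on log axes, by complex, GA library on the left and control on the right, with a line where both are equal. Genes at 0 UMIs in osteoclast-like cells are not drawn. Apart from Cox6a2, Cox6b2 and Ndufa4l2, the genes lie above the line in both libraries.

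The mitochondrial lists whose medians follow and the cytosolic ribosomal proteins also lay higher in osteoclast-like cells, while the glycolytic list had medians near 0. All 13 genes of mitochondrial DNA lay higher in osteoclast-like cells, with medians of 1.27 in GA and 1.18 in control. All 13 tricarboxylic acid cycle enzymes did, with medians of 1.44 and 1.77, and Idh3a, a subunit of isocitrate dehydrogenase, stood at 147 and 160 CPM against 26.5 and 19.1 CPM. Mitochondrial carriers and import had medians of 1.19 and 1.24, mitochondrial ribosomal proteins 0.77 and 1.00, cytosolic ribosomal proteins 0.58 and 0.79, and genes of glycolysis and the hypoxia response -0.05 and -0.15. Cyc1, the complex III gene outside the symbol rule, stood at 407 and 415 CPM against 83.1 and 62.4 CPM. Among regulators, Ppargc1b, a coactivator of mitochondrial genes with a known part in osteoclasts, stood at 193 CPM (170 to 217) and 196 CPM (180 to 213) against 6.16 and 6.85 CPM, a log2 ratio of 4.97 and 4.84. It was the highest of the list in both libraries. The median of the regulators, their other genes and the assembly factors are not given here for osteoclast-like cells.

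Several subunits have isoforms, and their shares set some classes apart (plot of isoform shares). Cox6a2, on chromosome 7 (128205435 to 128206387, minus strand), encodes the heart and muscle isoform of a complex IV subunit. It held 87.2% (85.6 to 88.7) of the UMIs of Cox6a1 and Cox6a2 in plasmacytoid dendritic-like cells of the GA library and 86.7% (84.6 to 88.5) in those of the control library. Its level there was 1335 and 1287 CPM, and that of Cox6a1 was 196 and 198 CPM. It was seen in 71 of 72 and 67 of 72 of these cells, whose median depths were 14227 and 10846.5 UMIs, and the 5 cells with most of it held 283 of 1560 and 213 of 1072 UMIs. In neutrophil-like cells, with medians of 7052.5 and 5087 UMIs, it was seen in 0.114% and 0.0963% of cells, and in dendritic-like cells, with 18420.5 and 18054.5 UMIs, in 0.633% and 0.932%. All kept cells together held 2036 and 1419 UMIs of Cox6a2, so part of them lay outside the plasmacytoid dendritic-like class. Not all classes that held this part are given here. T or NK-like cells held 45 and 38 UMIs of Cox6a2, of which 40 and 38 lay in 5 cells. The plasmacytoid dendritic-like class was named from markers such as Siglech, at 1244 and 1574 CPM, and the subunit genes had no part in the clustering.

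**Figure D5:**
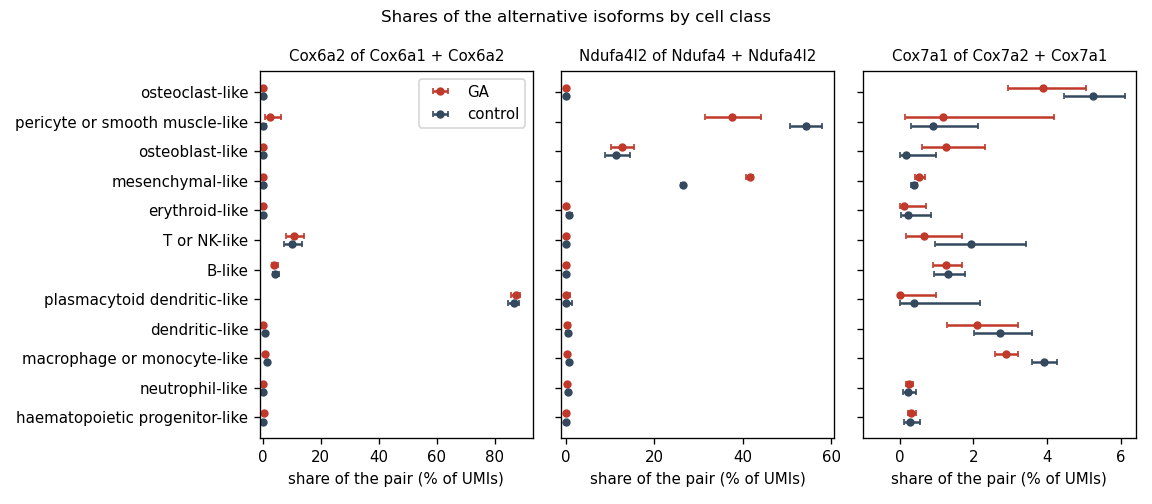
Share of UMIs (x axis, %) that the alternative isoform held of its pair, for Cox6a2, Ndufa4l2 and Cox7a1, by cell class (y axis), GA in red and control in dark blue, with exact 95% binomial intervals. Cox6a2 holds 87.2% and 86.7% in plasmacytoid dendritic-like cells, and Ndufa4l2 holds its largest shares in mesenchymal-like and pericyte or smooth muscle-like cells.

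Ndufa4l2, a paralogue of Ndufa4 known to rise in hypoxia, lies on chromosome 10 (127514967 to 127517154, plus strand). In the mesenchymal lineage it held 40.6% (39.9 to 41.3) of the UMIs of the pair in the GA library and 26.4% (26.0 to 26.8) in the control library. Its level was 170 and 112 CPM, that of Ndufa4 249 and 313 CPM. Among the mesenchymal populations its share was 46.4% and 41.1% in stem-like cells, 37.6% and 20.1% in dividing cells, 28.7% and 14.4% in multilineage progenitor-like cells, 12.7% and 11.2% in osteoblast-like cells and 2.30% and 3.76% in fibroblastic progenitor-like cells. The share was larger in GA in the first 3 of these and its intervals overlapped in osteoblast-like cells. Its log2 ratio of GA over control was 0.18 (0.13 to 0.24) in stem-like cells, 0.97 (0.82 to 1.11) in dividing cells and 0.89 (0.78 to 1.00) in multilineage progenitor-like cells. In dividing cells 5 of 45 GA cells held 296 of 673 UMIs. The mix of these populations differed between the libraries, and its part in the lineage shares was not tested. Pericyte or smooth muscle-like cells gave 37.7% (31.5 to 44.1) and 54.3% (50.8 to 57.8), but Ndufa4l2 was seen in 19 of 133 and 38 of 285 cells, and 5 cells held 51 of 90 and 156 of 427 UMIs. In osteoclast-like cells 1 UMI was found in each library.

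Cox7a1, the other muscle isoform of complex IV that was counted, held 3.90% (2.93 to 5.07) and 5.25% (4.47 to 6.11) of the UMIs of Cox7a1 and Cox7a2 in osteoclast-like cells and 2.89% and 3.93% in macrophage- or monocyte-like cells, against 0.249% and 0.228% in neutrophil-like cells. Cox6b2, known from testis, had its highest level in erythroid-like cells, 127 and 113 CPM, with 82 of 192 and 90 of 204 UMIs in 5 cells. Cox4i2, the hypoxia isoform of Cox4i1, held 11.8% in pericyte or smooth muscle-like cells of the control library and 3.26% in those of the GA library, where it rested on 14 UMIs in 5 cells.

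The last comparison was GA against control within each class, which asks whether treatment went with another level of these genes. Over all kept cells the median log2 ratio of the 80 genes was 0.05, against -0.10 over all genes. Only Cox6a2 lay more than 0.5 higher, at 12.7 against 7.73 CPM, and no subunit gene lay more than 0.5 lower, where 12.8% and 26.3% of all genes did. Most UMIs of Cox6a2 lay in plasmacytoid dendritic-like cells, where its levels, given above, were close between the libraries. The part of the class mix in its ratio was not tested. The sum over all cells follows the mix of classes and depths, with 4404 of 8380 GA cells and 2077 of 7553 control cells neutrophil-like. When each cell was thinned to 2000 UMIs, so that each weighed the same, the median was -0.19.

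In neutrophil-like cells the median log2 ratio of 79 genes was -0.01, against -0.16 over all genes, with 36 above 0. Shares of all genes above or below 0 are not given here or for the classes that follow. The sign of the median over all genes tells which side held more of them. No gene lay more than 0.5 higher and 2 lay more than 0.5 lower, Cox6b2 and Ndufa4l2, where 3.84% and 16.8% of all genes did. Cox6b2 stood at 3.83 against 6.86 CPM, a log2 ratio of -0.84 (-1.20 to -0.48), and Ndufa4l2 rested on 17 and 15 UMIs. The highest was Ndufa8 of complex I, at 69.4 against 59.4 CPM, a log2 ratio of 0.22 (0.12 to 0.33). Sdhc stood at 13.5 against 17.2 CPM, a log2 ratio of -0.35 (-0.56 to -0.13). By stage, the member median was 0.22 at the promyelocyte stage, 0.13 in dividing precursors, 0.02 in non-dividing immature cells and -0.13 in all mature cells. Medians over all genes are not given for these stages, so these values cannot be set against other genes. Median depths in GA and control were 43591 and 31859 UMIs at the promyelocyte stage and 5519 and 4067 UMIs in mature cells. The part of depth was not tested. In the mature cells with an interferon signature the member median was -0.40, against -0.25 over all genes, with 9 of 74 genes above 0. The cluster of that name scored 0.987 for markers of chemokine-expressing mature cells, close to its score for the interferon markers. Ccl3 and Ccl4 were among its top genes beside Ifit1 and Ifit3.

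In haematopoietic progenitor-like cells the median was 0.26, against 0.04 over all genes, and 72 of 79 genes lay above 0. Atp5g1, Atp5g3, Atp5k, Uqcrq, Uqcr11 and Cox6a2 lay more than 0.5 higher and Cox6b2 more than 0.5 lower, where 10.8% and 9.44% of all genes did. Atp5g1 stood at 790 against 544 CPM, a log2 ratio of 0.54 (0.48 to 0.60). Cox6a2 rested on 25 and 2 UMIs. Mitochondrial ribosomal proteins had a median of 0.29 and cytosolic ribosomal proteins of 0.06, while the 13 genes of mitochondrial DNA had a median of -0.20 with 11 of 13 below 0. The class held 322 GA and 133 control cells with median depths of 51115 and 35616 UMIs, and the part of depth in these values was not tested. Promyelocyte-stage cells numbered 166 and 85. In the clustering by stage, a cluster of 204 cells with Ccr2 and Ms4a6c among its top genes got no stage name. The part of the mix of cells within the class was not tested either.

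In macrophage- or monocyte-like cells the median was 0.23, against 0.10 over all genes, and 76 of 80 genes lay above 0. Cox6b2 and Ndufa4 lay more than 0.5 higher and Ndufa4l2 more than 0.5 lower, where 16% and 10.8% of all genes did. Ndufa4 stood at 364 against 239 CPM, a log2 ratio of 0.61 (0.57 to 0.65), and Ndufb11 of complex I at 198 against 145 CPM. The genes of mitochondrial DNA went the other way, with a median of -0.14 and 12 of 13 below 0. The 6 cell division genes lay higher in GA by a median of 1.82, and Mki67 stood at 227 against 69.0 CPM. Within single stages the median of the subunits was 0.17 in the dividing monocyte lineage, 0.23 in Ly6c2 monocyte-like cells, 0.02 in Arg1 macrophage-like cells and 0.07 in C1q macrophage-like cells. In that order these stages held 192, 155, 92 and 393 of the 1291 GA cells. In control they held 130, 153, 182 and 748 of 1780 cells. Medians over all genes are not given for these stages. Several clusters of the class got no stage name, the largest with 409 cells. Ndufa4 had a log2 ratio of 0.15 in C1q macrophage-like cells and 0.31 in Ly6c2 monocyte-like cells. The median over the class also moved with the clustering and lay between 0.04 and 0.27 under 12 other settings. The part of the dividing cells in it was not tested.

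In the mesenchymal lineage the median was -0.05, against -0.02 over all genes, with 23 of 80 genes above 0. Ndufa4l2, Cox7a1 and Cox6a2 lay more than 0.5 higher and none more than 0.5 lower, where 10.1% and 11.8% of all genes did. Cox7a1 rested on 70 and 99 UMIs and Cox6a2 on 11 and 12. Ndufa4 had the lowest ratio, -0.33 (-0.36 to -0.30). Stem-like cells were 420 of 863 GA cells and 627 of 1734 control cells of the lineage, and fibroblastic progenitor-like cells 49 and 341. The part of this mix in the lineage values, that of Ndufa4 among them, was not tested. The genes of mitochondrial DNA had a median of -0.19, with 12 of 13 below 0. In osteoclast-like cells, the median over 77 genes was -0.09 against 0.03 over all genes, and in B-like cells it was 0.02 over 79 genes.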

How the data were processed

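Single-cell RNA-seq of calvarial defect cells was measured in 1 GA and 1 control library of pooled mice. The authors deposited counts, whole UMIs per gene and barcode without normalization, made with Cell Ranger (7.0.1 in the file headers) on mm10. The GA matrix held 182949385 UMIs and the control matrix 214993030 UMIs. Barcodes with 500 to 140000 UMIs, 200 to 9500 genes and at most 15% mitochondrial UMIs were kept, after the study's limits. Scrublet in scanpy 1.11.5 marked 0 GA and 39 control barcodes (0.447%) on its own thresholds, so barcodes were taken out by rank of score instead, at 0.8% for each 1000 barcodes, which removed 695 from GA and 608 from control. Clustering used 2000 variable genes, Pearson residuals (theta 100), 50 principal components, Harmony written in NumPy, 15 neighbours and Leiden at resolution 1, which gave 36 clusters.

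Clusters were named from marker lists by scaled mean levels, with thresholds and lists that block a name set after seeing the data. The subunit genes and the gene lists were chosen with earlier results of these data known. Named genes were isoform sets, Sdha to Sdhd, the highest and lowest members of a complex or comparison with at least 200 UMIs, the most and least variable members, list extremes and regulators. Of these, the highest and lowest member of each complex are given only where they meet another part of the rule. Not every list extreme is given. The values of 1 subunit gene are not reported here by name. The motifs were chosen after the rule was written. Counts were summed per group. Log2 ratios have exact conditional binomial intervals, CPM exact Poisson intervals and shares Clopper-Pearson intervals, all at 95% and for counting error only. Medians and counts use genes with at least 20 UMIs over both groups. The ratio step was tested on simulated counts. Gene positions come from GENCODE vM21 and promoters from RefSeq (GRCm38.p6). The 12 other settings tried concern doublets, limits, clustering, naming, totals, centring, thinning, the minimum count and membership.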

Additional observations from a re-analysis of the deposited data

Results flagged for a closer look

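The subunit genes Ndufa4, Cox6b2 and Sdhc had log2 ratios of GA over control that went opposite ways in a pair of cell classes, beyond 0.25 on either side and with at least 200 UMIs over both libraries in each class. Each class had 1 library per condition, so the difference between classes was not tested. Ndufa4 had 0.61 in macrophage- or monocyte-like cells and -0.33 in the mesenchymal lineage. Its ratios within C1q macrophage-like and Ly6c2 monocyte-like cells, given above, were smaller than that of the class. The mix of stages and populations within both classes differed between the libraries, and its part was not tested. Cox6b2 had 0.79 in macrophage- or monocyte-like cells and -0.84 in neutrophil-like cells, and within C1q macrophage-like cells it had -0.49 on 15 and 45 UMIs. Sdhc had 0.28 in haematopoietic progenitor-like cells and -0.35 in neutrophil-like cells.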

How the results depend on the processing

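No paired analysis was possible because each condition has 1 library. Over the alternatives, the medians for neutrophil-like cells (-0.06 to 0.15) and the mesenchymal lineage (-0.07 to -0.03) stayed within the counting error of their median gene, although centring on all genes put the former above 0. Over all kept cells the median of 0.05 became -0.19 with each cell thinned to 2000 UMIs (158 GA and 200 control cells had fewer) and 0.15 relative to the median of all genes. In macrophage- or monocyte-like cells the median of 0.23 became 0.044 at Leiden resolution 0.5, 0.11 at resolution 2, 0.11 with seed 2, 0.10 with at most 10% mitochondrial UMIs, 0.10 without Harmony, 0.12 without doublet removal, 0.15 with the highest marker score per cell, 0.19 with thinning and 0.13 relative to all genes. Chosen after seeing the data, the C1q stage alone gave 0.073 and the Arg1 stage alone 0.020. For mature over promyelocyte-stage cells, totals without mitochondrial-encoded, ribosomal protein and globin genes gave -3.20 in GA and -2.75 in control, and centring on all genes gave -2.03 and -1.86. In control, resolution 2 gave -2.49 and the highest marker score -2.49. For osteoclast-like over macrophage-like cells, the highest marker score gave 0.59 in GA and 0.92 in control, totals without those genes 1.35 and 1.75, centring 1.35 and 1.63, and the C1q stage as the macrophages, chosen after seeing the data, 1.53 and 1.76. In GA, resolution 0.5 gave 1.35, resolution 2 gave 1.32, seed 2 gave 1.31, at most 10% mitochondrial UMIs gave 1.29 and no Harmony gave 1.30. The causes were not tested. Both within-library contrasts kept their direction under every alternative run. Depth limits genes such as Cox6a2 and Ndufa4l2 in classes where they have under 20 UMIs.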
